A study of Caenorhabditis elegans with 16 samples.

Results

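The 7 genes described here are *dod-17*, *dod-19*, *dod-21*, *dod-22*, *dod-24*, T24B8.5 and C17H12.6, among 21982 genes in the deposited gene table of whole *Caenorhabditis elegans* adults. They were picked by name, as genes with a high level in fed wild type and a fall on fasting, with the fed level of the second genotype in view. The wild-type values that chose them, and every difference of theirs that uses a wild-type library, are therefore given as a description with no test. All 7 were found, and all 7 passed the filter on low counts.

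The libraries form 4 groups of 4 biological replicates, each from about the same number of whole animals, harvested on adult day 2. The fasted labelled-deficient group carried a *jmjd-3.1* mutation, written gk384 in the sample titles and gk387 in the genotype field, was grown from the first larval stage on bacteria for *cbp-1* RNA interference, and was held without food for the last 24 h. The fed labelled-deficient group had the same genotype and interference with food throughout. The fasted and fed wild-type groups were N2 (Bristol) animals on bacteria with an empty interference vector (EV), with the same 24 h of fasting or feeding. *jmjd-3.1* encodes a histone H3 lysine 27 demethylase and *cbp-1* a histone acetyltransferase, and the submitters call the combination H3K27ac-deficient. Mutation and interference always occurred together, so their parts cannot be told apart. Read totals were 16446032 to 27792655 per library. *cbp-1* itself was not lower in the labelled-deficient libraries, at 209.6 ± 36.5 CPM when fed against 103.1 ± 16.9 CPM in fed wild type (counts per 1000000 reads after TMM scaling; SD, n = 4). On the log2 scale it was higher by 1.02 (SE 0.14), and its adjusted p was 1.9e-06 by edgeR's quasi-likelihood test. Reads of *jmjd-3.1* were not lower either, at 17.4 ± 2.71 CPM when fed against 12.3 ± 0.398 CPM in fed wild type, a log2 value 0.50 higher (SE 0.12), with adjusted p 0.00158 from edgeR. Whether the lesion removes reads of *jmjd-3.1* is not given in the sources used here. RNA made from the interference construct cannot be set apart from the native transcript in these tables. Directions between genotypes below therefore rest on the labels.

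As background, the intestine of *C. elegans* is both the organ that digests bacteria and a main site of defence against them. The p38 kinase PMK-1, acting with the transcription factor ATF-7, drives a set of secreted intestinal defence genes, and T24B8.5, which encodes a short secreted peptide with an ShK-like domain, is a widely used reporter of that pathway. The *dod* genes take their name from being downstream of DAF-16, the FOXO factor that insulin signalling restrains. *dod-17*, *dod-21*, *dod-22* and *dod-24* encode proteins with a CUB-like domain, a domain found in many worm genes that respond to pathogens.

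All 7 genes are protein-coding. In the WBcel235 annotation of Ensembl release 115, 5 of the 7 lie on chromosome IV, and 4 of them lie within 41.6 kb of one another. These are *dod-21* (WBGene00007873; IV, 12936738 to 12937988, plus strand), *dod-24* (WBGene00007875; 12940106 to 12941354, minus strand), *dod-22* (WBGene00010125; 12965374 to 12967392, plus strand) and *dod-17* (WBGene00010745; 12976303 to 12978343, plus strand). C17H12.6 (WBGene00015932; IV, 6821065 to 6822506, minus strand) lies elsewhere on that chromosome. *dod-19* (WBGene00022644) is on chromosome V, 411782 to 414759, minus strand. T24B8.5 (WBGene00011979) is on chromosome II, 9082626 to 9083193, minus strand. No other gene of the table overlaps any of the 7. Salmon divides a read that fits several transcripts between them, which leaves estimates that are not whole numbers. Such estimates occurred for *dod-19* in 12 of 16 libraries, for *dod-21* in 8, for C17H12.6 in 5, for *dod-17*, *dod-24* and T24B8.5 in 2 each and for *dod-22* in 0, so these levels, other than that of *dod-22*, hold some reads that were divided with another gene.

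Fasting lowered 6 of the 7 genes in labelled-deficient animals (edgeR adjusted p under 0.05), against 15.7% of all 15840 tested genes that were lower and 19.6% that were higher in the same comparison. Both sides of this comparison are labelled-deficient libraries, but the wild-type libraries entered the shared scaling and estimate of spread, and the fed labelled-deficient level was in view when the genes were picked. Fitted on the labelled-deficient libraries alone, 6 of the 7 passed as well. The falls were between 2.83-fold, for *dod-17*, and 72.1-fold, for *dod-21*, and *dod-22* did not pass the test. The median log2 difference over the 7 genes was -2.96, against 0.11 over all genes tested. The balance of directions over all genes depended on scaling, with 3109 genes higher and 2485 lower after TMM scaling and 2213 higher and 2966 lower with DESeq2's size factors.

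**Figure D1:**
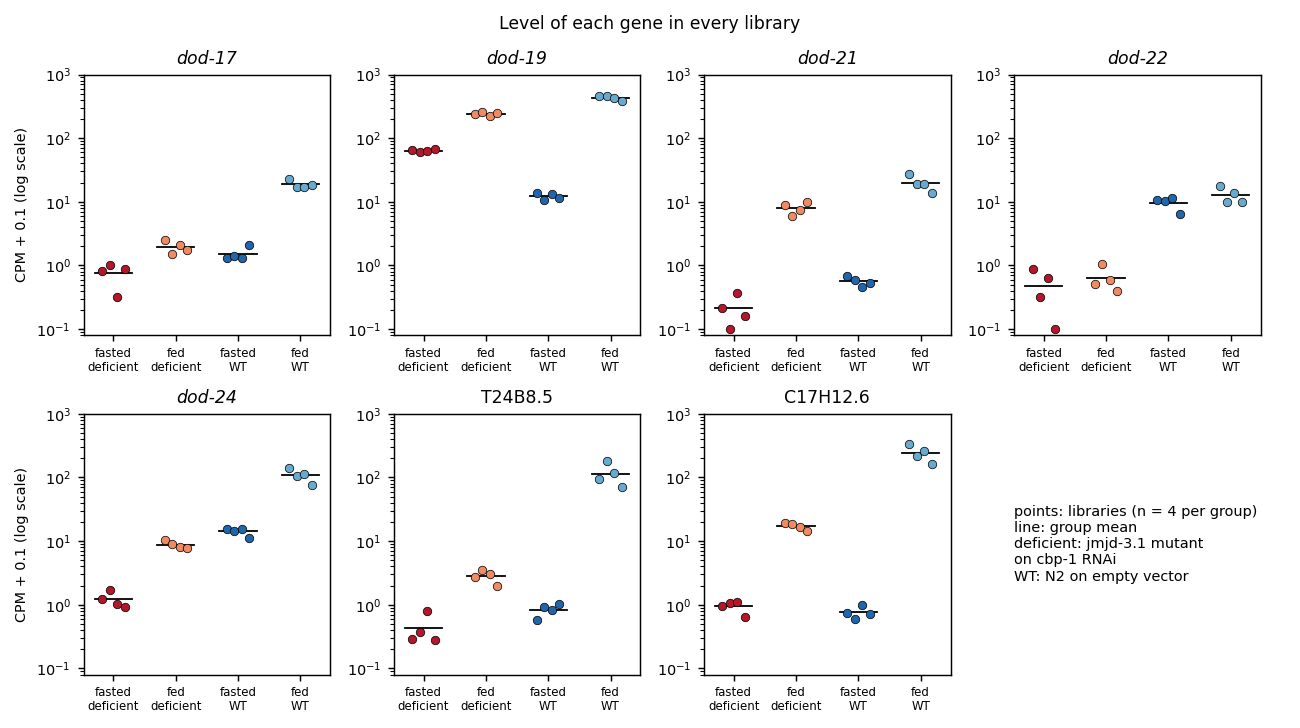
Level of each of the 7 genes in every library, as CPM + 0.1 on a log axis, for the fasted and fed labelled-deficient groups and the fasted and fed wild-type groups (points are libraries, lines are means of 4). In *dod-19* the fasted labelled-deficient libraries, at 61.1 to 66.4 CPM, lie above the fasted wild-type libraries, at 10.7 to 13.5 CPM, and *dod-22* is near 0 in both labelled-deficient groups.

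The CUB-like gene *dod-21* had 0.115, 0, 0.27 and 0.0596 CPM in the fasted labelled-deficient libraries, against 8.90, 5.91, 7.27 and 9.95 CPM in the fed ones. The groups did not overlap. The log2 difference was -6.07 (SE 0.38; edgeR adjusted p 1.51e-11). The fasted libraries held only 0 to 5 reads, so the size is imprecise, and without fasted labelled-deficient replicate 3 it was -6.81. In wild type *dod-21* had 0.577, 0.499, 0.357 and 0.424 CPM when fasted, against 27.5, 18.7, 18.8 and 13.5 CPM when fed, a log2 difference of -5.40 (SE 0.29). It was thus below 1 CPM in every fasted library of either genotype.

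*dod-24*, a CUB-like gene whose start lies 4.6 kb from that of *dod-21*, had 1.11, 1.58, 0.916 and 0.834 CPM in the fasted labelled-deficient libraries, against 10.3, 8.92, 7.84 and 7.78 CPM in the fed ones. Every fasted library lay below every fed one, and the log2 difference was -2.96 (SE 0.22; edgeR adjusted p 3.09e-10). In wild type the values were 15.5, 14.6, 15.3 and 11.18 CPM when fasted and 142.5, 105.5, 111.9 and 76.6 CPM when fed, a log2 difference of -2.95 (SE 0.17). The fasted level was 12.7% of the fed level in labelled-deficient animals and 12.96% in wild type, on levels that were 12.7 times apart between the genotypes when fasted and 12.5 times apart when fed.

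*dod-17*, the third CUB-like gene of the interval, had 0.728, 0.925, 0.216 and 0.775 CPM in the fasted labelled-deficient libraries, against 2.40, 1.396, 2.03 and 1.67 CPM in the fed ones. The groups did not overlap, and the log2 difference was -1.49 (SE 0.29; edgeR adjusted p 0.00038). The fasted libraries held only 4 to 19 reads, so the size is imprecise, and it was -1.67 to -1.21 without 1 library at a time. In wild type it had 1.21, 1.32, 1.20 and 2.03 CPM when fasted, against 23.0, 16.7, 17.2 and 18.2 CPM when fed, a log2 difference of -3.70 (SE 0.23). The fed labelled-deficient libraries overlapped the fasted wild-type ones.

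*dod-22* was the exception. It had 0.767, 0.218, 0.539 and 0 CPM in the fasted labelled-deficient libraries, against 0.406, 0.967, 0.484 and 0.303 CPM in the fed ones. The groups overlapped, and the log2 difference of -0.42 (SE 0.54; edgeR adjusted p 0.57) did not pass the test, with a 95% interval of -1.48 to 0.64. These libraries held 0 to 20 and 6 to 27 reads of it, so a change of that size was not detectable at this depth. In wild type *dod-22* had 10.8, 10.1, 11.5 and 6.23 CPM when fasted, against 17.9, 9.75, 13.6 and 9.67 CPM when fed. Those groups overlapped too, with a log2 difference of -0.41 (SE 0.27), so the description used to pick the set, a fall on fasting, does not hold for *dod-22* in these libraries.

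T24B8.5, the PMK-1 reporter gene, had 0.192, 0.272, 0.701 and 0.179 CPM in the fasted labelled-deficient libraries, against 2.60, 3.37, 2.95 and 1.87 CPM in the fed ones. The groups did not overlap. The log2 difference was -3.03 (SE 0.41; edgeR adjusted p 3.9e-06), and -3.64 without fasted labelled-deficient replicate 3, which held 13 of the 3 to 13 reads per fasted library. In wild type it had 0.472, 0.817, 0.714 and 0.943 CPM when fasted, against 93.96, 178.9, 115.5 and 71.6 CPM when fed. That is a log2 difference of -7.26 (SE 0.31), and the fasted mean was 0.64% of the fed mean.

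C17H12.6 had 0.843, 0.980, 1.02 and 0.536 CPM in the fasted labelled-deficient libraries, against 19.3, 18.6, 16.8 and 14.3 CPM in the fed ones. The groups lay far apart, and the log2 difference was -4.33 (SE 0.24; edgeR adjusted p 1.22e-12). In wild type it had 0.629, 0.499, 0.892 and 0.613 CPM when fasted, against 337.3, 217.9, 259.2 and 163.0 CPM when fed, a log2 difference of -8.52 (SE 0.25) and the widest range among the 7 genes. Both fasted groups thus stood near 1 CPM or below, whatever the fed level had been.

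*dod-19* had 64.4, 61.1, 62.4 and 66.4 CPM in the fasted labelled-deficient libraries, against 239.9, 257.9, 219.8 and 252.7 CPM in the fed ones. The log2 difference was -1.93 (SE 0.10; edgeR adjusted p 7.86e-13), with no overlap. In wild type it had 13.5, 10.7, 13.1 and 11.5 CPM when fasted, against 453.8, 457.3, 424.9 and 385.5 CPM when fed, a log2 difference of -5.14 (SE 0.12). The fasted mean was 26.2% of the fed mean in labelled-deficient animals and 2.83% in wild type. Among the 7 genes *dod-19* was the one whose fasted labelled-deficient libraries all lay above the fasted wild-type libraries.

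**Figure D2:**
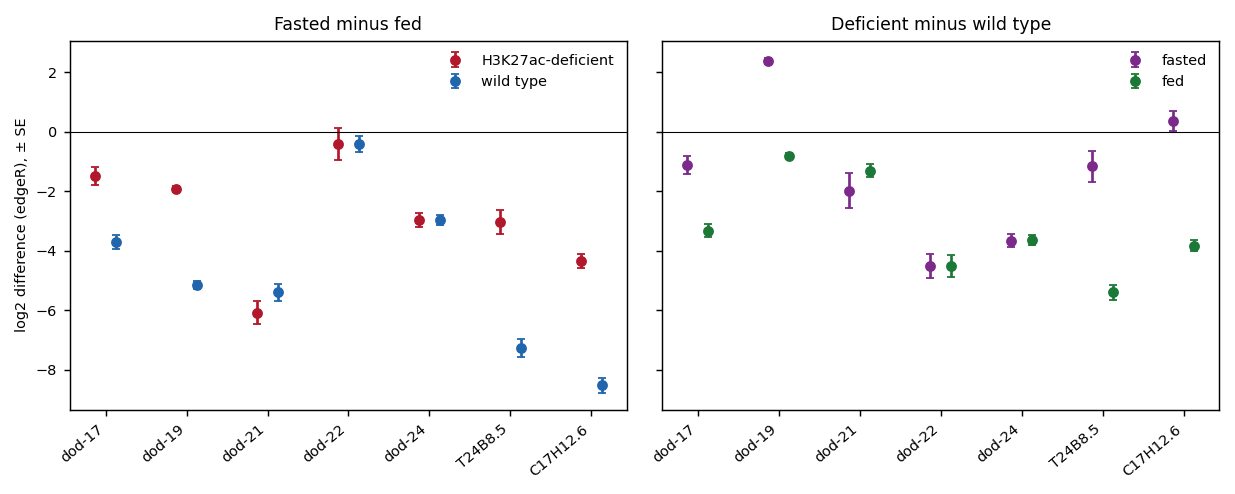
Log2 differences from the edgeR fit with standard errors, for fasted minus fed in each genotype (left) and for labelled-deficient minus wild type in each feeding state (right). *dod-24* and *dod-22* have nearly equal fasting differences in both genotypes, whereas those of *dod-17*, *dod-19*, T24B8.5 and C17H12.6 are nearer to 0 in labelled-deficient animals.

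In wild type 6 of the 7 genes had fasted libraries that all lay below the fed ones, as did 24.5% of all genes tested. The genes were picked on that comparison, so nothing is read from the count. When fed, all 7 genes were lower in labelled-deficient than in wild-type libraries with no overlap, against 23.8% of all genes. The fed wild-type libraries are among those used to pick the genes, so this too is a description. The fed labelled-deficient mean was 2.35% of the fed wild-type mean for T24B8.5, 4.24% for *dod-22*, 7.06% for C17H12.6, 7.99% for *dod-24* and 9.97% for *dod-17*. It was 40.8% for *dod-21* and 56.4% for *dod-19*, so these genes kept far more of the wild-type fed level than the other 5. The sizes of these shares depended on scaling. Per transcript length, as TPM, fed *dod-19* averaged 159.3 in labelled-deficient animals against 204.5 in wild type, and *dod-21* 7.87 against 14.65. The log2 differences ran from -5.40 (SE 0.26) for T24B8.5 to -0.83 (SE 0.10) for *dod-19*. Over the 6 alternative fits, that of *dod-19* was -0.83 to -0.53.

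After fasting the genotypes differed gene by gene. *dod-22*, *dod-24*, *dod-21* and *dod-17* were lower in labelled-deficient libraries without overlap, as were 29.2% of all genes, and *dod-19* was higher without overlap, as were 28.3%. T24B8.5 and C17H12.6 overlapped. The labelled-deficient mean was 0.381 ± 0.339 CPM against 9.64 ± 2.34 CPM in wild type for *dod-22* (SD, n = 4), a log2 difference of -4.51 (SE 0.40), and -5.18 without fasted labelled-deficient replicate 1. It was 1.11 ± 0.333 CPM against 14.1 ± 2.02 CPM for *dod-24*, a log2 difference of -3.66 (SE 0.22). For *dod-19* it was 63.6 ± 2.30 CPM against 12.2 ± 1.33 CPM, a log2 difference of 2.39 (SE 0.11) and 5.22-fold higher. For *dod-21* the difference was -1.98 (SE 0.59), and -2.71 without fasted labelled-deficient replicate 3, on 0 to 5 reads against 8 to 11 reads per library.

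The fasting difference of labelled-deficient animals minus that of wild type was described with no test, since it holds the wild-type fall that chose the genes. It was 4.23 (SE 0.69) for T24B8.5, 4.19 (SE 0.40) for C17H12.6, 3.21 (SE 0.15) for *dod-19* and 2.22 (SE 0.39) for *dod-17*. For *dod-24* and *dod-22* it was -0.01 each, and for *dod-21* it was -0.67 (SE 0.62). A standard error derived from the F statistic is not dependable for a value this near 0, so none is given for *dod-24* and *dod-22*. Their fasting differences in labelled-deficient animals and wild type had SE 0.22 and 0.17 for *dod-24*, and 0.54 and 0.27 for *dod-22*. Without 1 library at a time, the difference between genotypes was -0.21 to 0.12 for *dod-24*, -0.68 to 0.46 for *dod-22* and -1.41 to -0.31 for *dod-21*. The lowest value for *dod-22* came without fasted labelled-deficient replicate 1 and that for *dod-21* without fasted labelled-deficient replicate 3, which also gave the lowest value for T24B8.5, 3.62. Of the 4 genes of the chromosome IV interval, only *dod-17* had a value well above 0, and a difference among the 4 was not tested. The *dod-17* value rests on 4 to 19 reads in the fasted labelled-deficient libraries. T24B8.5 had 3 to 13 reads there and 9 to 20 in fasted wild type, and C17H12.6 had 9 to 22 and 11 to 20. Both genes overlapped between the fasted genotypes, while their fed labelled-deficient means were 2.35% and 7.06% of those in wild type. Whether a floor on the fasted level limits their values was not tested. *dod-22* overlapped between fasted and fed libraries in both genotypes, so it has no clear fall to compare.

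Levels were compared between genes per transcript length, as TPM. In the fasted labelled-deficient group *dod-19*, at 43.3 ± 2.47 TPM, stood apart from the other 6, whose means were 0.121 to 1.34 TPM and each of which overlapped its neighbour in the order. In the fed labelled-deficient group the order was *dod-19* at 159.3 ± 7.65 TPM, C17H12.6 at 18.5 ± 2.31 TPM and T24B8.5 at 9.84 ± 2.09 TPM, followed by *dod-21*, *dod-24*, *dod-17* and *dod-22*. There T24B8.5 and *dod-21*, and *dod-21* and *dod-24*, overlapped. In the fasted wild-type group *dod-24* was first, at 10.8 ± 1.45 TPM, and it overlapped *dod-22* at 7.75 ± 1.88 TPM, which overlapped *dod-19*. In fed wild type T24B8.5 was first at 311.6 ± 84.98 TPM, ahead of *dod-19* at 204.5 ± 8.30 TPM and C17H12.6 at 202.2 ± 50.8 TPM (SD, n = 4 throughout). These first 3 overlapped in neighbouring pairs. Of the summed CPM of the 7 genes, *dod-19* made up 94.9% in fasted and 86.1% in fed labelled-deficient animals, and 31.0% in fasted and 45.3% in fed wild type.

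The spread between replicates differed among the 7 genes. In fed wild type the coefficient of variation of CPM was 7.73% for *dod-19* and 40.2% for T24B8.5. Replicate 1 of that group was the highest for 5 of the 7 genes and replicate 4 the lowest for 6. Leaving out any 1 library kept the wild-type fasting difference of C17H12.6 between -8.71 and -8.33 and that of T24B8.5 between -7.44 and -6.98. Over the 16 libraries, the Pearson correlation of each gene's standardized log2 CPM with the mean of the other 6 was 0.97 for T24B8.5, 0.94 for *dod-17* and for C17H12.6, 0.89 for *dod-24*, 0.89 for *dod-21*, 0.62 for *dod-19* and 0.48 for *dod-22*. The libraries fall into 4 groups, so these values describe the group pattern and carry no test.

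For 3 of the 7 genes the deposited tables list more than 1 transcript. The reads of *dod-19* were assigned mainly to transcript ZK6.10a.1, with 95.8% ± 4.93 of them in fasted and 82.9% ± 4.99 in fed labelled-deficient animals, and 87.2% ± 12.1 in fasted and 91.3% ± 6.40 in fed wild type (SD, n = 4). The labelled-deficient groups did not overlap, at 90.6% to 100% when fasted against 75.6% to 86.2% when fed. The remainder went almost wholly to ZK6.10b.1. C17H12.6 reads were assigned to C17H12.6a.1 for 86.3% ± 19.5 in fasted and 95.9% ± 4.10 in fed labelled-deficient animals, and for 100% in fasted and 95.5% ± 5.10 in fed wild type. The fasted labelled-deficient share rests on 9 to 22 reads of the gene per library and ran from 58.7% to 100%. Every *dod-22* read, in the libraries that had any, was assigned to F55G11.5a.1. These shares are Salmon's estimates and were not tested.

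The neighbourhood of the genes was then examined. Of 51 other genes of the table whose annotated start lay within 20 kb of that of a member, 30 were tested, and fasting in labelled-deficient animals lowered 16 of them and raised 5 (edgeR adjusted p under 0.05). The lowered share was 53.3%, against 15.7% of all genes. In wild type fasting lowered 18 and raised 5 of the 30, against 30.6% of all genes lower and 30.4% higher. With scaling to library size alone, all genes in that comparison split into 7458 higher and 2523 lower, and the neighbours were not counted again on that scale. Neighbours are not independent of one another.

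C32H11.9, which starts 0.5 kb from *dod-21* on the other strand, had 0 to 1 reads in the fasted labelled-deficient libraries, against 120 to 195 reads in the fed ones. In fasted wild type it had 0 reads in every library, against 73 to 267 reads in fed wild type. Like *dod-21* it was close to 0 in every fasted library of both genotypes. F55G11.4, which starts 2.7 kb from *dod-17*, had 1.38 ± 0.344 CPM in fasted against 10.6 ± 1.31 CPM in the fed labelled-deficient group (SD, n = 4). It fell by 2.92 on the log2 scale there, with a standard error of 0.17 and an edgeR adjusted p of 3.41e-12, and the wild-type difference was -4.38 (SE 0.15). F55G11.8 starts 2.6 kb from *dod-22* and changed by -0.75 on the log2 scale (SE 0.24; adjusted p 0.0177 by edgeR) in labelled-deficient animals and by -3.55 (SE 0.20) in wild type. *dod-22* itself did not pass in the comparison tested. K10D11.2, on the other side of *dod-17*, rose by 1.99 (SE 0.21) in labelled-deficient animals and by 2.64 (SE 0.15) in wild type. K10D11.2 starts just past the interval. Every tested gene inside the interval had a negative difference in both genotypes, but these include the 4 *dod* genes, which were picked for a fall on fasting. In labelled-deficient animals neither *dod-22* nor F55G11.1, at -0.46 (SE 0.34; edgeR adjusted p 0.312), passed. The shared direction is therefore a description.

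**Figure D3:**
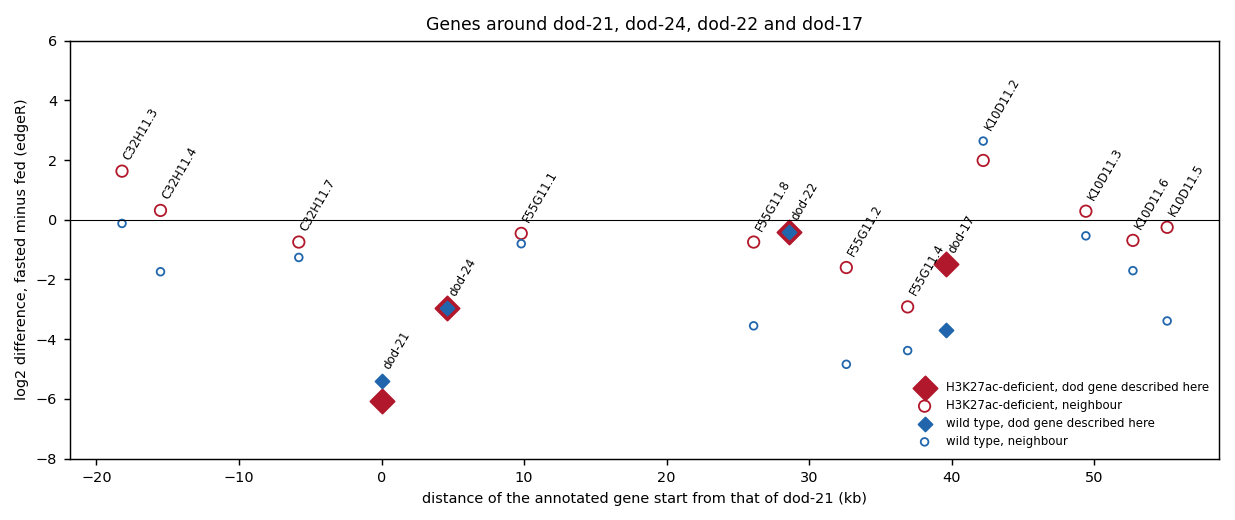
Log2 difference, fasted minus fed, of tested genes around *dod-21*, *dod-24*, *dod-22* and *dod-17*, against the distance of each annotated start from that of *dod-21* in kb; filled diamonds are the 4 *dod* genes, open circles their neighbours, and C32H11.9 is left out because a whole group had 0 reads. Most neighbours lie below 0 in wild type, while K10D11.2 lies above 0 in both genotypes.

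Around C17H12.6, the infection-response gene C17H12.8 starts 3.8 kb away and had 16.6 ± 1.17 CPM in fasted against 206.2 ± 30.4 CPM in the fed labelled-deficient group (SD, n = 4). Its log2 difference was -3.63 (SE 0.16; edgeR adjusted p 2.47e-14) there and -3.15 (SE 0.15) in wild type. Beside *dod-19*, ZK6.11 starts 2.9 kb away on the same strand. It had 15.6 ± 2.13 CPM in fasted against 344.3 ± 35.8 CPM in fed labelled-deficient libraries and 7.10 ± 0.621 CPM in fasted against 632.5 ± 105.3 CPM in fed wild-type libraries (SD, n = 4). Of the 6 tested neighbours of T24B8.5, 1 fell and 2 rose in labelled-deficient animals and none of the 6 fell in wild type, where 3 rose.

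Other genes of the same pathways were counted from lists. Of all genes tested, fasting lowered 15.7% and raised 19.6% in labelled-deficient animals, and lowered 30.6% and raised 30.4% in wild type. Of 7 *irg* genes, named for their response to infection, fasting lowered 6 in labelled-deficient animals and 6 in wild type and raised 0 in either (edgeR adjusted p under 0.05). *irg-4*, a PMK-1-dependent gene, had a log2 difference of -3.67 (SE 0.23) in labelled-deficient animals and of -4.37 (SE 0.19) in wild type. *irg-5*, another PMK-1-dependent gene, was at 1.95 ± 0.20 CPM in fasted and 1.86 ± 0.10 CPM in the fed labelled-deficient group (SD, n = 4), and at 1.81 and 30.96 CPM on average in fasted and fed wild type. Its labelled-deficient difference of 0.06 did not pass (edgeR adjusted p 0.859). The interaction of genotype and fasting for *irg-5* was 4.15 (SE 0.28; edgeR adjusted p 4.12e-10). *irg-5* was not among the 7 genes, but the lists were chosen with earlier results of these data known. That p is therefore not free of selection. Of all genes, 25.9% had an interaction past an adjusted p of 0.05 in either direction. Of 15 other infection-response effectors in the table, fasting lowered 10 and raised 3 in labelled-deficient animals and lowered 11 and raised 4 in wild type. F55G11.2, F55G11.8, C32H11.4 and C17H12.8 are among these 15 and were also counted among the neighbours. *lys-2*, a lysozyme gene, had log2 differences of -5.64 in labelled-deficient animals and -4.80 in wild type, whereas *fmo-2*, a flavin-containing monooxygenase gene, rose by 3.72 and 7.29.

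Of the 5 other *dod* genes, fasting lowered 3 and raised 1 in labelled-deficient animals, and lowered 2 and raised 2 in wild type. *dod-23* had log2 differences of -2.92 in labelled-deficient animals and -2.16 in wild type, and *dod-3* rose by 2.11 and 3.19. *dod-18*, at -0.38 with an edgeR adjusted p of 0.0479, and *dod-20*, on few reads, are the uncertain ones. The count of lowered genes was 1 without fed labelled-deficient replicate 2, without fed labelled-deficient replicate 3 or without fasted labelled-deficient replicate 3. Among 12 genes that DAF-16 is known to activate, fasting raised 7 and lowered 1 in labelled-deficient animals and raised 9 and lowered 0 in wild type, and *mtl-1*, a metallothionein gene, rose by 2.61 and by 5.07. *dod-3* and *dod-6* are on both of these lists, and *dod-20* was also counted as a neighbour of *dod-19*, so the counts are not of separate genes.

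The genes that encode the signalling pathways were counted next. The shares over all genes were 19.6% higher and 15.7% lower in labelled-deficient animals, and 30.4% higher and 30.6% lower in wild type. Nothing about the pathways is read from counts on such short lists. Of 9 genes of the p38 PMK-1 pathway, fasting raised 3 and lowered 0 in labelled-deficient animals, with a median log2 difference of 0.11, against 0.11 over all genes. The raised count was 2 with DESeq2's size factors and 1 with no filter on low counts. In wild type it raised 3 and lowered 1, and with scaling to library size alone it raised 7 and lowered 0. *pmk-1* itself differed by 0.11 on fasting (edgeR adjusted p 0.47) in labelled-deficient animals, and *tir-1*, which acts upstream of the kinases, rose by 0.37 (edgeR adjusted p 0.00367). Between the genotypes when fed, 4 of the 9 were higher and 2 lower in labelled-deficient animals, against 3890 higher and 5018 lower of all genes tested. Among the higher ones were *pmk-1*, by 1.13 (SE 0.12), *pmk-2*, by 1.89 (SE 0.12), and *pmk-3*, by 1.45 (SE 0.12). On fasting, of 11 genes from the insulin receptor to FOXO, 4 rose and 0 fell in labelled-deficient animals, and 4 rose and 2 fell in wild type. *daf-16* rose by 0.63 in labelled-deficient animals. Of 12 intestinal transcription regulators, 5 rose and 0 fell in labelled-deficient animals, but 2 rose and 1 fell with DESeq2's size factors, and 6 rose and 3 fell in wild type, where *elt-2*, the main intestinal GATA factor, fell by 0.63. For wild type, library size alone gave 8 raised and 1 lowered regulators.

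**Figure D4:**
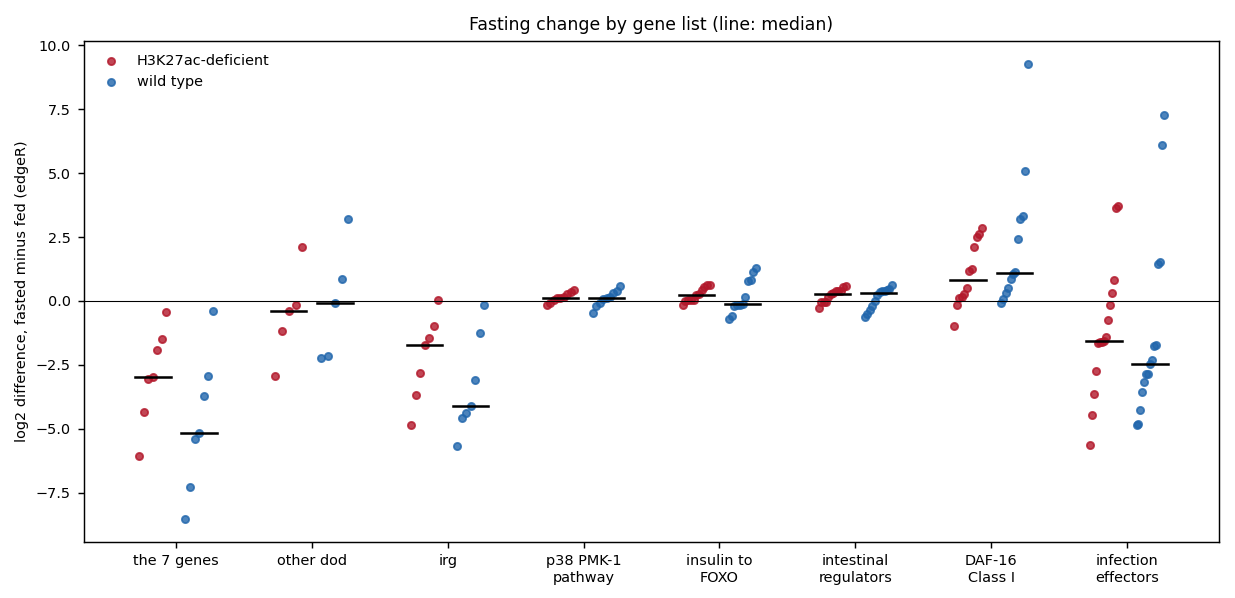
Log2 difference, fasted minus fed, of each tested gene by list, for labelled-deficient animals and wild type, with the median of each list as a line. The *irg* genes and the infection-response effectors have medians of -1.73 and -1.56 in labelled-deficient animals, and the p38 PMK-1 pathway genes lie close to 0.

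Outside these lists, the genes whose pattern over the 16 libraries was most like the mean standardized profile of the 7 genes, among 10089 with a mean of at least 5 CPM, were *acp-6*, *folt-2*, *clec-41*, Y43C5A.2, *asp-4*, *ugt-63*, *pxn-1* and *cbl-1*, with Pearson r of 0.994 to 0.996. *acp-6* (WBGene00022245), named as an acid phosphatase gene, had 50.3 ± 4.34 CPM in fasted and 311.4 ± 22.9 CPM in fed labelled-deficient animals, and 103.8 ± 3.76 CPM in fasted and 3041 ± 470.8 CPM in fed wild type (SD, n = 4). *asp-4*, an aspartyl protease gene, had 209.8 ± 9.65, 543.3 ± 34.8, 375.6 ± 29.0 and 1554 ± 273.5 CPM in the same groups. The likeness follows the 4 group means and is a description.

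Markers of cell types moved with the groups as well. The summed level of 7 intestinal markers was 334.9 to 356.0 CPM in fasted and 987.6 to 1224 CPM in fed labelled-deficient libraries, and 1310 to 1442 CPM in fasted and 3198 to 5188 CPM in fed wild type, and none of the markers was at 0 in all libraries of a group. *asp-1*, an aspartyl protease gene, averaged 52.2 CPM in fasted and 730.8 CPM in fed labelled-deficient animals, and 1135 CPM in fasted and 3181 CPM in fed wild type, and so made up most of the sum in each group but the first. In labelled-deficient animals fasting raised 3 of the 7 markers and lowered 3, with a median log2 difference of -0.27, and in wild type it raised 1 and lowered 6. Between the genotypes when fed, all 7 intestinal markers were lower in labelled-deficient libraries (edgeR adjusted p under 0.05), with a median log2 difference of -1.32. In that comparison 31.7% of all genes tested were lower. When fasted, 2 of the 7 were higher and 3 lower. The summed level of 4 germline markers was 1489 to 2016 CPM in fasted and 1221 to 1973 CPM in fed labelled-deficient libraries, against 607.3 to 737.9 CPM in fasted and 585.8 to 875.1 CPM in fed wild type. All 4 were higher in labelled-deficient libraries in both feeding states (edgeR adjusted p under 0.05). The summed level of 4 oocyte markers was 2016 to 2847 and 1654 to 3064 CPM in the labelled-deficient groups, and 947.2 to 1138 and 1399 to 2478 CPM in the wild-type groups. The summed level of 4 hypodermis markers was 25.8 to 29.7 and 453.2 to 684.2 CPM in the fasted and fed labelled-deficient groups, and 173.2 to 207.3 and 1363 to 2580 CPM in the fasted and fed wild-type groups. That sum is nearly all *col-19*, a cuticle collagen gene, and of the 3 hypodermis markers tested fasting lowered 1 and raised 0 in labelled-deficient animals, and lowered 1 and raised 1 in wild type. Body muscle, pharynx, neuron and sperm markers numbered 4 each, and fasting lowered 3 muscle markers and raised 0 in labelled-deficient animals, and lowered 3 and raised 1 in wild type. The part of these shifts in the levels of the 7 genes was not tested. In whole animals, a smaller intestinal share of all RNA and a lower level of these genes within intestinal cells cannot be told apart.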

How the data were processed

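RNA of whole animals was selected for polyadenylated species and sequenced in 16 libraries, per the labels' protocols. The authors deposited estimated counts per gene, and TPM with estimated counts per transcript for each library, made with Salmon 1.9.0, per the submitters' processing notes, which also name the builds WBcel235 and ce11. The annotation release and the use of strand are not given in the sources used here. The deposited estimated counts were rounded to the nearest read. After filterByExpr and TMM scaling, all 16 libraries entered 1 quasi-likelihood fit by group (edgeR 4.0.16, R 4.3.3). Tests were two-sided, with Benjamini-Hochberg adjustment over the 15840 genes tested in each of 5 contrasts and a threshold of 0.05. Standard errors were taken as |log2 change| over the root of the F statistic, which is not dependable where the change is near 0. TPM was summed over transcripts; sums of transcript estimates equalled the gene table within 0.01 reads for the 7 genes. Positions were matched by identifier for 21896 of 21982 genes.

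The members and lists were chosen with earlier results of these data known. Every member is named. From each list, up to 4 genes were eligible for naming in a contrast, those that passed, averaged 5 CPM or more and changed the most; others named, *pmk-1*, *irg-5* in labelled-deficient animals, *dod-18*, *dod-20*, *daf-16* and *elt-2* among them, were chosen by role or after their values were seen. Every list gene with an interaction past the threshold is given. For likeness, a prior count of 2 was added before taking log2 CPM. C09H5.2 was on a list and is not in the gene table. The fit was tested on simulated counts. Alternatives were other scalings, no filter, DESeq2 1.42.0, the replicate block, only the groups compared and leaving out each library. No pair of replicates matched within counting error (chi-square over degrees of freedom 5.75 to 85.2). Same-numbered libraries deviated together between the fed groups, with correlations of 0.11 to 0.42 in all 4 pairs, and not in every pair elsewhere. The labels describe 4 independent experiments without tying a replicate number to one.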

Additional observations from a re-analysis of the deposited data

Results flagged for a closer look

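A single value among the 7 genes stood apart from its group, *dod-17* in fasted wild-type replicate 4, at 2.03 CPM against 1.20 to 1.32 CPM in the other 3 libraries. Chance marks about 1 in 20 groups of this kind, and 28 groups were looked at, each in both directions.

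The interaction of genotype and fasting, the labelled-deficient difference minus the wild-type one on the log2 scale, passed an edgeR adjusted p of 0.05 for the genes of the other lists given here. Among *irg* and effector genes it was 4.15 for *irg-5*, 1.75 for *irg-7*, 1.65 for *irg-3*, -0.84 for *irg-1*, -3.57 for *fmo-2*, 2.81 for F55G11.8, 2.06 for C32H11.4, 1.31 for K08D8.5, 3.24 for F55G11.2, 2.29 for *clec-71*, -3.08 for *clec-60*, -2.46 for *ilys-3*, -0.84 for *lys-2* and -0.70 for *spp-1*. Among *dod* genes and genes activated by DAF-16 it was -1.08 for *dod-3*, -0.996 for *dod-6*, -0.77 for *dod-23*, -6.43 for *hsp-12.6*, -2.46 for *mtl-1*, -2.15 for *nnt-1*, -1.29 for *sod-3*, -1.01 for *ctl-2* and -0.89 for *ctl-1*. Among pathway genes it was 0.84 for *daf-16*, 0.65 for *daf-18*, -0.75 for *akt-2*, -0.75 for *ist-1* and -0.53 for *pdk-1*. Of the neighbours named, it was 1.46 for F55G11.4 and 2.01 for ZK6.11. It was 0.37 for *nipi-3*, 0.53 for *nhr-86*, 0.47 for *cebp-2* and 0.46 for *skn-1*, and none of these last 4 was called higher with DESeq2's size factors or with library size alone. Of all genes called for the interaction, 2304 had a positive value and 1805 a negative one, and these counts were 989 and 3547 with library size alone.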

How the results depend on the processing

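The count of 6 members lowered by fasting in labelled-deficient animals was 6 under all 6 alternatives and in all 16 fits without 1 library. *dod-22* turned to 0.0509 (edgeR adjusted p 0.955) without fed labelled-deficient replicate 2 and was -1.09 without fasted labelled-deficient replicate 1, on few reads. Over the alternatives, *dod-17* was at -1.60 to -1.44 with adjusted p up to 0.0013, the largest p of the 6. Of the recomputed log2 differences of members, 750 kept their direction and side of the threshold or moved within their spread. Another 11 moved further and 1 reversed. A reversal was counted only for fasting in labelled-deficient animals. Changes of sign elsewhere, as in the interaction of *dod-22* and of *dod-24*, are therefore not in that count. Scaling to library size alone raised the median of all genes in wild-type fasting to 0.35, against 0.01, and moved the wild-type differences of *dod-17*, *dod-19* and *dod-24* to -3.37, -4.80 and -2.61. The counts of genes called over all genes were 4577 to 6248 for fasting in labelled-deficient animals, 8892 to 9980 for fasting in wild type, 8188 to 9345 for the genotypes when fed, 8421 to 9532 when fasted and 3288 to 5113 for the interaction, over fits without 1 library. With the replicate block the interaction called 6422 genes, against 4109, and no call of a member changed. With library size alone the directions over all genes were 7458 higher and 2523 lower for wild-type fasting and 5903 and 3018 for the genotypes when fed. With no filter they were 1867 and 3041 for fasting in labelled-deficient animals. With TPM in place of CPM, 4 of the 14 log2 ratios of member means, fasted over fed, moved by more than their spread. The fasted levels of *dod-17*, *dod-21*, *dod-22*, T24B8.5 and C17H12.6 in labelled-deficient animals rest on 0 to 22 reads per library. That of *dod-24* rests on 14 to 29 reads per library. In fasted wild type, *dod-21* had 8 to 11 reads per library, T24B8.5 had 9 to 20 and C17H12.6 had 11 to 20. The sizes of the differences of these genes in either genotype are limited by such low counts.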
